A study of Mus musculus with 12 samples.

Results

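Leukotrienes, prostaglandins and platelet-activating factor (PAF) are lipid mediators, and 10 genes of their metabolism were examined among the 23420 genes counted in B16-F10 tumors. The genes were Alox5, Alox5ap, Lta4h and Ltc4s of the leukotriene branch, Ptgs1, Ptgs2, Ptges, Hpgds and Ptgds of the prostaglandin branch, and Pla2g7 of PAF breakdown. They were chosen by name because Alox5, Ptges and Pla2g7 stood lower with anti–PD-1 in nonobese mice. The anti–PD-1 comparison in nonobese mice is therefore given for these 10 genes as a description. Counts of the 10 genes past a threshold in it are not read as tests. Comparisons of the 10 genes that share those nonobese tumors are likewise given as a description. Markers and further pathway genes were tested in every comparison. Their lists were made with earlier results of these data known. Their counts in comparisons that use nonobese tumors are therefore not independent of the choice of this pathway. The comparison within obese mice used other tumors and was tested.

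B16-F10 is a mouse melanoma cell line, and each sample was RNA from a frozen, unsorted piece of 1 tumor grown under the skin of a male C57BL/6J mouse. Obese mice had eaten a Western diet with added cholesterol for 15 weeks, and nonobese mice a matched control diet. Once tumors were palpable, mice of each diet received 10 mg/kg of either anti–PD-1 (clone 29F.1A12), which blocks an inhibitory receptor of T cells, or isotype control antibody (clone 2A3). Each of the 4 groups held 3 tumors, all from the same implanted line. All 12 tumors carried between 14022900 and 33871800 counted reads, and 1 count was worth 0.0294 to 0.0705 CPM, the count scaled by library size. The melanoma label held in every tumor, where 7 melanoma markers summed to between 24720 and 30283 CPM. All 10 genes passed the filter on low counts, which left 13095 genes for the fits.

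Both mediator families begin with arachidonic acid, which phospholipases free from membranes. 5-Lipoxygenase, with its membrane partner FLAP, turns it into leukotriene A4, from which one enzyme makes the neutrophil attractant leukotriene B4 and another the cysteinyl leukotrienes. Cyclooxygenases instead turn it into prostaglandin H2, the substrate of separate synthases for prostaglandins E2 and D2, thromboxane and prostacyclin. Macrophages, mast cells and neutrophils are known sources of leukotrienes, and cyclooxygenase 2 with prostaglandin E2 is well studied for dampening antitumor immunity. PAF is a phospholipid mediator that secreted PAF acetylhydrolase inactivates.

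The promoters of the 3 genes that led to the choice, and of Ptgs2, which was lower with anti–PD-1 under either diet, are shown so that the sequences at annotated starts of these genes can be compared. RefSeq promoter sequence on GRCm38.p6 was found for 9 of the 10 genes. Each line holds 300 bases around a gene start annotated by RefSeq, which for Ptges and Pla2g7 lies inside the gene as GENCODE outlines it, 5′ to 3′ on the strand of the gene, and capitals mark matches on either strand to GGGCGG (a GC box), GAGGAA (a core for ETS factors) or TGACG (part of a cyclic AMP response element). None of the marked matches overlapped another.
Alox5, chr6:116461129-116461428, minus strand: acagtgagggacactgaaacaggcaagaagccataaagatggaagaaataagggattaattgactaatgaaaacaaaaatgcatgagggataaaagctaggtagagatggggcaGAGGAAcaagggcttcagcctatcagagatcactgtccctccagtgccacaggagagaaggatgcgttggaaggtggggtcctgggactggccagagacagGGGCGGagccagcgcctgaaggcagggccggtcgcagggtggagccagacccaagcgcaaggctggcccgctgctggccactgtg
Ptges, chr2:30903248-30903547, minus strand: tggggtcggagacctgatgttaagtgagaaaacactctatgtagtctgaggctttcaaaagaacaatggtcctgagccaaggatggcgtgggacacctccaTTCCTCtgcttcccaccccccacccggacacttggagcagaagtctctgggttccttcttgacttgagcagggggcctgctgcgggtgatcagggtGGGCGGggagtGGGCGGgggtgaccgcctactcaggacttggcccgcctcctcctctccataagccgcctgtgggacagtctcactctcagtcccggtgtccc
Pla2g7, chr17:43568201-43568500, plus strand: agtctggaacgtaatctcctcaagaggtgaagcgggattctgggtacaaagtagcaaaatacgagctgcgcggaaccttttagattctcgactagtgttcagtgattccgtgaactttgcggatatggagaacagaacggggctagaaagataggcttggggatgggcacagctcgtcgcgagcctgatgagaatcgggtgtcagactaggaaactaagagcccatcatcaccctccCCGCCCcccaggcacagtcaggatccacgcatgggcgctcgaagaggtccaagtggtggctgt
Ptgs2, chr1:150099781-150100080, plus strand: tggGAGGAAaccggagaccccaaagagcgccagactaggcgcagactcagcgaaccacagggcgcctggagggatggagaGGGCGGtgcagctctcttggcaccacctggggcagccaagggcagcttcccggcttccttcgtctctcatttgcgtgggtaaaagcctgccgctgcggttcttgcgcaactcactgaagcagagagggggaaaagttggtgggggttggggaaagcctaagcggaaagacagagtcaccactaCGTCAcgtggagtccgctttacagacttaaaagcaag

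The GC box was found in all 4 of these promoters, with 2 copies in Ptges, and in none of the other 5 promoters read. It occurs in 35.7% of the 32851 mouse promoters of the same length. GAGGAA was found in 7 of the 9 promoters against 28.3% of all, and Pla2g7 and Ptgds lacked it. TGACG was found only in Ptgs2, against 20.8% of all promoters. The letters were chosen after these promoters had been read, so these counts describe the sequences and are not sites of binding.

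**Figure D1:**
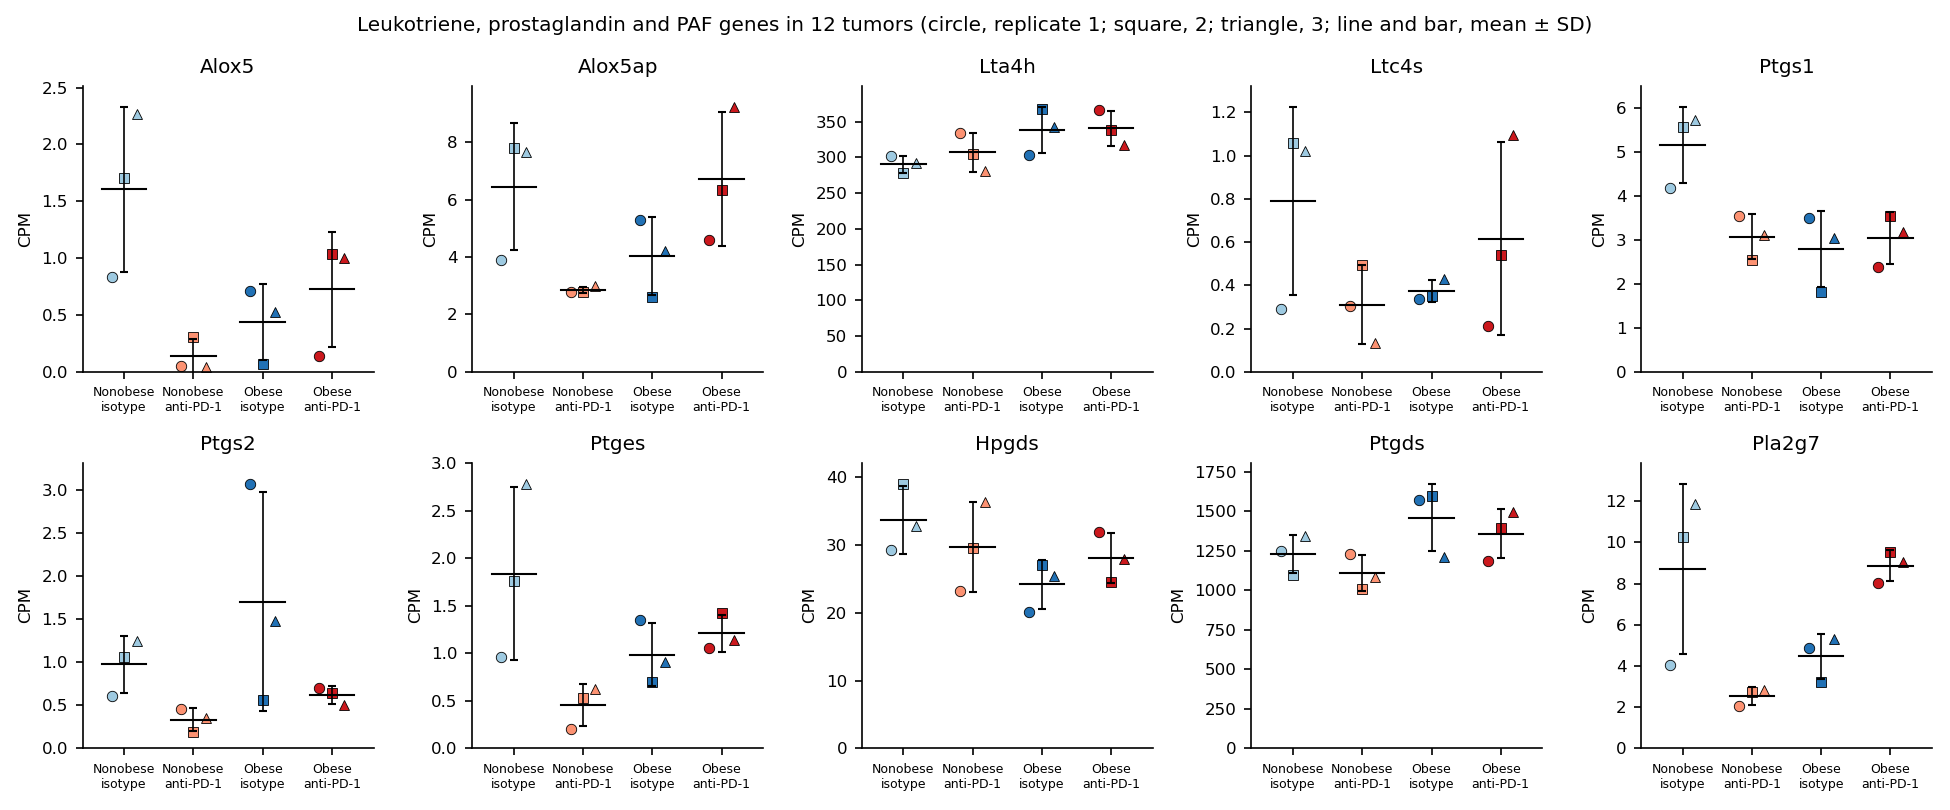
CPM (vertical axes, linear from 0) of the 10 genes in each of 12 tumors by diet and antibody, with symbols for replicate numbers and a line and bar for the mean ± SD of 3 tumors. The means of Alox5, Alox5ap, Ltc4s, Ptgs2, Ptges and Pla2g7 lie lowest in nonobese mice given anti–PD-1, whereas Lta4h and Ptgds differ little between groups. An SD bar reaching below 0 is clipped at the axis.

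Per kilobase of exon, the abundant members were the synthase Ptgds, at a mean level of 782 CPM per kb, and the hydrolase Lta4h, at 52.3 CPM per kb. Hpgds followed with 4.50, Alox5ap with 3.53 and Pla2g7 with 2.12 CPM per kb. The rate-limiting enzymes were scarce, with Ptgs1 at 0.906, Ptgs2 at 0.198 and Alox5 at 0.177 CPM per kb. Ltc4s at 0.515 and Ptges at 0.285 CPM per kb lay between them. Within single tumors, Alox5 rested on 1 to 58 counts, Ltc4s on 3 to 36, Ptges on 4 to 60 and Ptgs2 on 6 to 73, so their values carry large counting error, whereas Ptgds had at least 16848 counts in each tumor.

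Under the thresholds of the study (fold over 2 and unadjusted P under 0.05), 5 of the 10 genes were lower with anti–PD-1 in nonobese mice and none was higher, where 2.31% of all genes tested were lower and 0.115% higher. The 5 were Alox5, Alox5ap, Ptgs2, Ptges and Pla2g7. These 5 and Ptgs1 had groups that did not overlap, as 5.37% of all genes did downward and 5.81% upward. Because this comparison chose the genes, nothing is read from these counts. In obese mice 1 of the 10, Ptgs2, was lower with anti–PD-1, against 0.206% of all genes tested. None was higher, against 2.24%. No gene of the 13095 reached an FDR under 0.05 in either comparison by edgeR (0 calls, with 685 genes at unadjusted P under 0.05 in nonobese and 991 in obese mice), while DESeq2 gave 9 and 105 genes. The median log2 fold change of the 10 genes was -1.22 in nonobese mice and 0.25 in obese mice, beside 0.02 and -0.01 over all genes tested. Near the fold threshold in nonobese mice, Alox5ap lay inside at a log2 fold change of -1.17 and Ptgs1 outside at -0.75, while Ltc4s was at -1.27 with groups that overlapped.

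**Figure D2:**
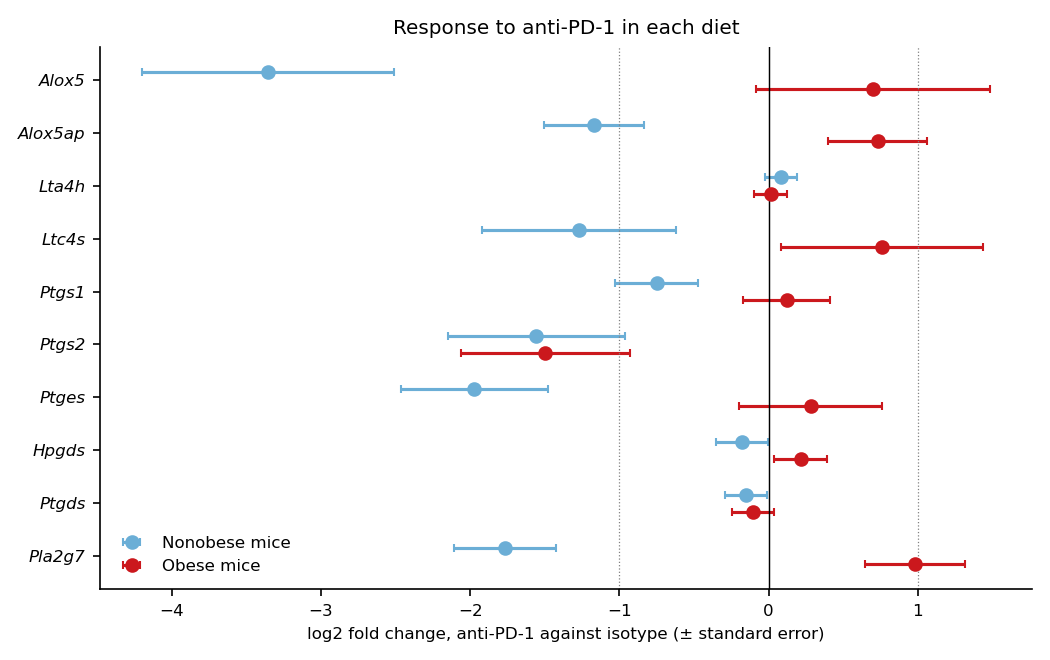
Log2 fold change of anti–PD-1 against isotype control (horizontal axis, point with standard error from the edgeR fit) for the 10 genes in nonobese and obese mice, where dotted lines mark fold 2. In obese mice 8 points lie above 0 and below fold 2, Ptgds lies at -0.10 and Ptgs2 at -1.50, whereas in nonobese mice 9 points lie below 0 and Alox5 lies farthest left at -3.36.

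Alox5 (ENSMUSG00000025701.12; GRCm38 chr6:116410077-116461178, minus strand), which encodes 5-lipoxygenase, was the scarcest of the 10 genes per kilobase of exon. Its level was 0.84, 1.70 and 2.27 CPM in the isotype control tumors of nonobese mice and 0.05, 0.31 and 0.04 CPM in those given anti–PD-1. The 2 groups did not overlap, and the tumors given anti–PD-1 held 12 counts in all against 124. Its log2 fold change was -3.36 ± 0.84 (SE), and the ratio of pooled counts, isotype control over anti–PD-1, was 9.29 (95% exact interval 5.13 to 18.5, counting error only). Nonobese anti–PD-1 replicate 2 held 10 of the 12 counts, and without it the log2 fold change was -4.90. In obese mice the level was 0.72, 0.07 and 0.53 CPM with isotype control and 0.14, 1.03 and 1.00 CPM with anti–PD-1. These groups overlapped, as each held 1 tumor near the bottom of the range. The log2 fold change of 0.70 ± 0.78 did not pass (edgeR quasi-likelihood test, FDR = 0.875).

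Alox5ap (ENSMUSG00000060063.9; chr5:149264767-149288153, plus strand) encodes FLAP, which presents arachidonic acid to 5-lipoxygenase. It measured 3.89, 7.79 and 7.67 CPM in nonobese isotype control tumors and 2.80, 2.78 and 2.99 CPM with anti–PD-1, with no overlap and a fold difference of 2.25. The anti–PD-1 tumors of nonobese mice were nearly equal to each other, whereas isotype control replicate 1 lay well below the other tumors of its group. In obese mice Alox5ap measured 5.30, 2.59 and 4.20 CPM with isotype control and 4.58, 6.35 and 9.22 CPM with anti–PD-1. The 2 highest tumors of obese mice were given anti–PD-1, but the groups overlapped. The log2 fold change of 0.73 ± 0.33 did not reach fold 2 (edgeR, unadjusted P = 0.0473, FDR = 0.654).

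Lta4h (ENSMUSG00000015889.8; chr10:93453411-93484875, plus strand) encodes leukotriene A4 hydrolase, which makes leukotriene B4. It ranged only from 278 to 368 CPM over the 12 tumors. In obese mice its log2 fold change was 0.01 (95% interval -0.24 to 0.26; edgeR FDR = 0.987). Ltc4s (ENSMUSG00000020377.15; chr11:50236461-50238616, minus strand), the synthase of leukotriene C4, measured 0.29, 1.06 and 1.02 CPM in nonobese isotype control tumors and 0.30, 0.49 and 0.13 CPM with anti–PD-1. In obese mice it measured 0.34, 0.35 and 0.43 CPM with isotype control and 0.21, 0.54 and 1.09 CPM with anti–PD-1. The groups overlapped under both diets, and the log2 fold change in obese mice was 0.76 ± 0.68 (edgeR FDR = 0.839). Without obese anti–PD-1 replicate 3 that log2 fold change was 0.073.

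Ptgs1 (ENSMUSG00000047250.13; chr2:36230426-36252272, plus strand) encodes cyclooxygenase 1, the constitutive form. Its highest levels were the 4.18, 5.58 and 5.74 CPM of nonobese isotype control tumors, above every tumor of the other groups, which ran from 1.82 to 3.56 CPM. In obese mice the log2 fold change was 0.12 (95% interval -0.55 to 0.78; edgeR FDR = 0.946).

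Ptgs2 (ENSMUSG00000032487.8; chr1:150100031-150108227, plus strand) encodes the inducible cyclooxygenase 2, and was the gene of the 10 that passed the thresholds of the study in obese mice. It measured 3.07, 0.56 and 1.48 CPM with isotype control and 0.71, 0.64 and 0.50 CPM with anti–PD-1. The groups overlapped, because isotype control replicate 2 lay within the anti–PD-1 range. The log2 fold change was -1.50 ± 0.57 (edgeR, unadjusted P = 0.0197, FDR = 0.535), and it rested on the isotype control tumor at 3.07 CPM, without which it was -0.75 and did not pass. It did not pass without obese anti–PD-1 replicate 3 either. In nonobese mice Ptgs2 measured 0.61, 1.06 and 1.25 CPM with isotype control and 0.46, 0.19 and 0.36 CPM with anti–PD-1, without overlap and with a log2 fold change of -1.56 ± 0.59.

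Ptges (ENSMUSG00000050737.13; chr2:30889471-30929863, minus strand) encodes the inducible microsomal synthase of prostaglandin E2. In nonobese mice it measured 0.96, 1.76 and 2.78 CPM with isotype control and 0.20, 0.53 and 0.62 CPM with anti–PD-1. The groups did not overlap and differed 3.92-fold. In obese mice the tumors measured 1.35, 0.70 and 0.91 CPM with isotype control and 1.06, 1.43 and 1.14 CPM with anti–PD-1. These levels overlapped, with a log2 fold change of 0.28 ± 0.48 (edgeR FDR = 0.921).

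The synthases of prostaglandin D2 did not separate by antibody. Hpgds (ENSMUSG00000029919.5; chr6:65117293-65144908, minus strand), the hematopoietic form, ranged from 20.1 to 39.1 CPM, and its log2 fold change in obese mice was 0.21 ± 0.18 (edgeR FDR = 0.828). Ptgds (ENSMUSG00000015090.13; chr2:25466709-25470046, minus strand), the lipocalin form, ranged from 1010 to 1596 CPM and ranked 56 by mean level among all genes listed. Its log2 fold change in obese mice was -0.10 (95% interval -0.43 to 0.22; edgeR FDR = 0.897). For both genes the antibody groups overlapped under either diet.

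Pla2g7 (ENSMUSG00000023913.17; chr17:43568098-43612201, plus strand) encodes PAF acetylhydrolase, which removes the acetyl group of PAF and also cleaves oxidized phospholipids. It measured 4.05, 10.3 and 11.9 CPM in nonobese isotype control tumors and 2.03, 2.72 and 2.85 CPM with anti–PD-1, 3.41-fold lower and without overlap. In obese mice it measured 4.88, 3.22 and 5.30 CPM with isotype control and 8.04, 9.54 and 9.03 CPM with anti–PD-1. Every obese tumor given anti–PD-1 lay above every obese isotype control tumor. The log2 fold change of 0.98 ± 0.33 lay just under fold 2 (95% interval 0.21 to 1.75; edgeR, unadjusted P = 0.0112, FDR = 0.473). Pla2g7 was the 1 member of the 10 whose obese groups separated upward, against 5.45% of all genes tested, and none separated downward, against 7%.

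Levels of markers of leukocytes and stroma are set beside these genes, because in unsorted tumor tissue fewer cells of a type and less RNA per cell cannot be told apart. Of 10 macrophage markers 9 were in the table, and their summed level was 201 to 445 CPM in nonobese isotype control tumors, 142 to 185 CPM in nonobese anti–PD-1 tumors, 148 to 282 CPM in obese isotype control tumors and 217 to 471 CPM in obese anti–PD-1 tumors. All 9 had a log2 fold change below 0 in nonobese mice, where 5 passed the thresholds of the study. All 9 were above 0 in obese mice, where 1 passed. Of all genes tested, 2.31% passed downward in nonobese mice and 2.24% upward in obese mice. Csf1r, the receptor for macrophage colony-stimulating factor, had log2 fold changes of -1.73 ± 0.47 and 1.10 ± 0.47 (edgeR FDR = 0.833 and 0.611). The 8 fibroblast markers summed to 625 to 2817, 291 to 568, 212 to 1115 and 431 to 1876 CPM in the same order of groups, and 5 of them were lower in nonobese mice while none passed in obese mice. The lowest tumor of the nonobese isotype control group in both lists was replicate 1, which was also the lowest of its group for 8 of the 10 genes. The part of these markers in the levels of the 10 genes was not tested.

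**Figure D3:**
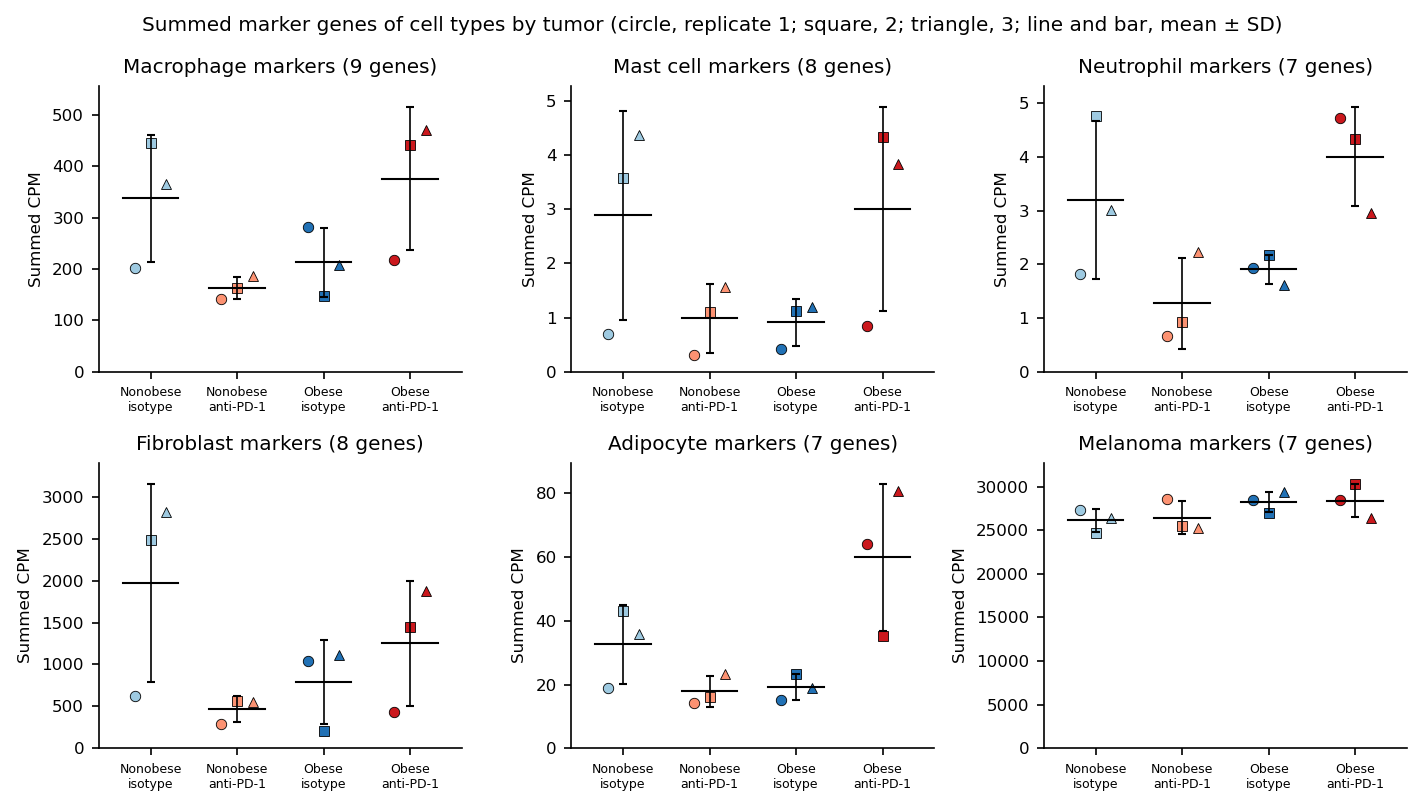
Summed CPM of the marker genes of 6 cell types (vertical axes, linear from 0) in each tumor, with the mean ± SD of 3 tumors. Macrophage, fibroblast and adipocyte sums are lower in nonobese mice given anti–PD-1 than in the isotype control means, mast cell and neutrophil sums stay below 5 CPM, and melanoma sums lie between 24720 and 30283 CPM in all groups.

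Mast cells and neutrophils, which make leukotrienes, left few reads. The 8 mast cell markers summed to 0.71 to 4.37, 0.30 to 1.56, 0.42 to 1.19 and 0.85 to 4.33 CPM in the same order of groups, Ms4a2 was at 0 in all 12 tumors, and 3 of the 8 passed the filter, of which 1 was lower in nonobese mice and none passed in obese mice. The 7 neutrophil markers in the table summed to 1.83 to 4.76, 0.66 to 2.23, 1.62 to 2.17 and 2.97 to 4.72 CPM. The 7 adipocyte markers summed to 18.8 to 43.0 CPM with isotype control and 14.2 to 23.3 CPM with anti–PD-1 in nonobese mice, where 4 were lower, and to 15.3 to 23.3 and 35.1 to 80.6 CPM in obese mice, where all 7 were higher (lowest edgeR FDR = 0.833 and 0.192). T cell markers also moved in obese mice, where 5 of the 7 in the table passed upward (lowest edgeR FDR = 0.192), from sums of 5.11 to 6.92 CPM to 7.90 to 18.8 CPM, and they summed to 5.46 to 8.20 and 5.03 to 6.25 CPM in the isotype control and anti–PD-1 tumors of nonobese mice, where 1 was lower. The 7 endothelial markers summed to 175 to 219, 121 to 186, 96.4 to 175 and 130 to 216 CPM in the 4 groups, and 1 was lower in nonobese mice while none passed in obese mice. The 6 skeletal muscle markers summed to 12.8 to 316, 7.88 to 313, 10.2 to 110 and 31.0 to 495 CPM, and 2 were higher in obese mice. Keratinocyte markers summed to 0.62 to 8.05 CPM in nonobese isotype control tumors and 0 to 0.22 CPM in nonobese anti–PD-1 tumors. They summed to 0 to 0.50 and 0 to 0.69 CPM in the obese groups. Of the 6 keratinocyte markers, 1 passed the filter, and it was lower in nonobese mice. Dendritic cell markers summed to 6.26 to 7.95, 6.15 to 7.07, 5.88 to 6.48 and 6.20 to 8.61 CPM, and B cell markers to 1.59 to 2.92, 1.16 to 2.59, 1.72 to 2.36 and 1.41 to 6.16 CPM. Of the 2 B cell markers tested, 1 was higher in obese mice. Eosinophil markers summed to at most 0.246 CPM in any tumor. Beside these counts of markers, 2.31% of all genes tested were lower in nonobese mice and 2.24% higher in obese mice. Between diets with anti–PD-1, 7 macrophage, 7 adipocyte, 6 T cell and 3 fibroblast markers were higher in obese mice. So was 1 each of the dendritic cell, B cell and endothelial markers, where 3.69% of all genes were. Of the adipocyte markers, 3 had an edgeR FDR under 0.05. With isotype control, 4 adipocyte, 3 macrophage and 1 each of the mast cell, T cell, fibroblast and keratinocyte markers were lower, where 1.12% were. The part of these lists in the result was not tested either.

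Between diets, the values are given without a test because they include the tumors that chose the genes. With isotype control, 3 of the 10 genes lay lower in obese than nonobese mice without overlap, namely Alox5, Ptgs1 and Hpgds, where 9.02% of all genes did. Lta4h lay higher without overlap, as 10.4% of all genes did. With anti–PD-1, 4 genes lay higher in obese mice without overlap, namely Alox5ap, Ptgs2, Ptges and Pla2g7, where 6.54% of all genes did, and none lay lower, where 7.06% did. Their log2 differences, obese minus nonobese, were 1.24 ± 0.34 for Alox5ap, 0.91 ± 0.62 for Ptgs2, 1.39 ± 0.50 for Ptges and 1.80 ± 0.34 for Pla2g7. Alox5 had a larger difference of 2.28 ± 0.87 but overlapped, as 1 obese anti–PD-1 tumor lay at 0.14 CPM and nonobese anti–PD-1 replicate 2 at 0.31 CPM. Without that nonobese tumor the difference was 3.82. Ordered by mean level, Alox5, Alox5ap, Ltc4s, Ptgs2, Ptges and Pla2g7 had their lowest group in nonobese mice given anti–PD-1, as did Ptgds with its narrow range, and only for Ptgs2, Ptges and Pla2g7 did that group lie below its neighbor in the order without overlap.

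The levels of several members followed each other over the 12 tumors. On log2 CPM, Pearson's r was 0.92 between Alox5ap and Pla2g7, 0.90 between Ptges and Pla2g7 and 0.85 between Alox5 and Alox5ap. As deviations from group means, which take out the differences between groups, r was 0.78, 0.83 and 0.78 for these pairs. These are descriptions over tumors that share groups and tissue makeup. Lta4h and Pla2g7 had an r of -0.10, or -0.52 as deviations, and Ptgds and Pla2g7 of 0.22, or -0.22 as deviations.

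Among the 13094 other genes tested, the 5 whose log2 CPM was most like that of Alox5 over the 12 tumors were Galnt16, Cmah, Lyve1, Frmd4b and S1pr3, with r from 0.94 to 0.96. For Pla2g7 they were Fcgr3, Gpx7, Ctss, Clec10a and Ly6a, with r from 0.93 to 0.95. For Ptges they were Rps4y2, Ptx3, Cmah, A4galt and Lbp, with r from 0.91 to 0.94. Cmah, which makes the sialic acid Neu5Gc, was in the lists of both Alox5 and Ptges. Lyve1 is a marker of lymphatic endothelium and of some macrophages, and Fcgr3 encodes an Fc receptor of myeloid cells. Each list is the top of all genes, so no p is attached.

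The wider pathway was read from 68 further gene symbols listed by function (Fam213b also as Prxl2b), of which 66 were in the table and 45 passed the filter. In nonobese mice 7 of the 45 were lower and none higher under the thresholds of the study, where 2.31% of all genes tested were lower and 0.115% higher. Those with the smallest P were Dpep1, a dipeptidase that converts leukotriene D4 to E4 (-2.43 ± 0.67), Cyp4f18, which hydroxylates leukotriene B4 (-1.89 ± 0.59), Dpep2 (-1.32 ± 0.42), the secreted phospholipase Pla2g2d (-2.87 ± 0.93), the prostacyclin synthase Ptgis (-2.50 ± 0.85) and the thromboxane synthase Tbxas1 (-1.24 ± 0.45), all as log2 fold changes. Pla2g2d had passed the filter on low counts only through tumors of the groups where it was high, and its nonobese groups held 40 and 4 counts. Nothing is therefore read from its call, which was lost under 1 of 17 alternatives. The call of Tbxas1 was lost under 2 of 19 alternatives. The lowest edgeR FDR among the 45 was 0.833. The median of the 45 was -0.06, beside 0.02 over all genes tested. The same tumors led to the choice of the pathway, so the count of 7 is not independent of that choice.

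In obese mice 2 of the 45 were higher and none lower, where 2.24% of all genes tested were higher and 0.206% lower. Pla2g2d, 1 of the 2, had passed the filter on low counts only through tumors of the groups where it was high. Its place in this count is therefore not read as a result. Cyp4f18 measured 1.18, 0.91 and 1.15 CPM with isotype control and 1.48, 3.54 and 5.98 CPM with anti–PD-1. The groups did not overlap, and the log2 fold change was 1.76 ± 0.58 (edgeR, unadjusted P = 0.00916, FDR = 0.440). Pla2g2d measured 0.17, 0.07 and 0.14 CPM and then 0.21, 0.49 and 0.87 CPM, from 1 to 19 counts per tumor. Its lowest anti–PD-1 tumor held 3 counts where the highest isotype control tumor held 4. The log2 fold change was 1.98 ± 0.85 (edgeR, unadjusted P = 0.0361, FDR = 0.619). Nothing is read from that test, because of how the gene passed the filter. The call of Cyp4f18 was lost without obese anti–PD-1 replicate 3. That of Pla2g2d, with the same limit from the filter, was lost with DESeq2, with the replicate block and without any 1 of 5 of the 6 obese tumors. The median of the 45 in obese mice was 0.15, beside -0.01 over all genes tested.

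Between diets, 1 of the 45 was lower in obese mice with isotype control, Fam213b, which encodes a prostamide and prostaglandin F synthase (log2 difference -1.01 ± 0.46, edgeR FDR = 0.375), where 1.12% of all genes were, and none was higher, where 0.244% were. That call of Fam213b (unadjusted P = 0.0468) was lost under 14 of 18 alternatives. With anti–PD-1, 7 of the 45 were higher in obese mice, where 3.69% of all genes were, and none was lower, where 0.565% were. The 6 with the smallest P were Cyp4f18 (2.42 ± 0.60, FDR = 0.112), Pla2g2d (3.14 ± 0.93), Tbxas1 (1.41 ± 0.45), Dpep1 (2.02 ± 0.67), Hpgd, which inactivates prostaglandins (1.97 ± 0.79), and Dpep2 (1.02 ± 0.42), all as log2 differences, obese minus nonobese. Hpgd and Pla2g2d had passed the filter on low counts only through tumors of the groups where they were high. Nothing is therefore read from their calls or their place in the count. The call of Hpgd was lost under 3 of 17 alternatives, that of Dpep2 under 4 of 18 and that of Tbxas1 under 1 of 19. None of the 45 reached an edgeR FDR under 0.05. That of Cyp4f18 ranged from 0.00600 to 0.476 over the alternatives, with 0.00600 from DESeq2 and 0.0352 with replicate numbers as a block. These genes share tumors between the comparisons, so their reappearance in several lists is not independent. Nor are these counts independent of the choice of the pathway, to which the nonobese tumors led.

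**Figure D4:**
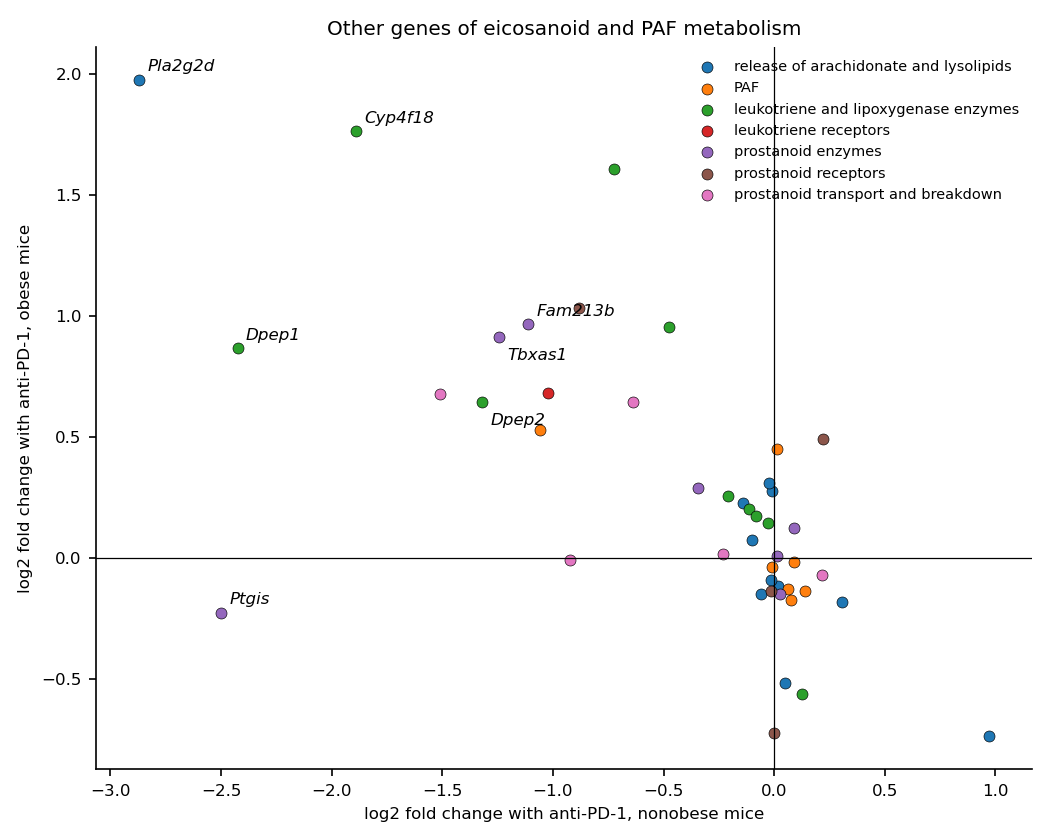
Log2 fold change with anti–PD-1 in nonobese mice (horizontal axis) and in obese mice (vertical axis) for the 45 tested genes of eicosanoid and PAF metabolism, colored by function and named where either comparison passed the thresholds. Pla2g2d and Cyp4f18 lie at the upper left, at -2.87 and 1.98 and at -1.89 and 1.76, while most genes lie near 0 on both axes.

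Receptors for these mediators were at low levels. Of the leukotriene receptors only Cysltr1, for cysteinyl leukotrienes, passed the filter, at 0 to 0.78 CPM, and its log2 fold changes were -1.02 ± 0.75 in nonobese and 0.68 ± 0.76 in obese mice, neither of which passed. Ltb4r1, the high-affinity receptor for leukotriene B4, did not pass the filter. It was at 0.40 to 0.45 CPM in nonobese isotype control tumors and 0.089 to 0.152 CPM in nonobese anti–PD-1 tumors, without overlap (35 and 8 counts in all), and at 0 to 0.29 and 0.23 to 0.69 CPM in the obese groups. Of the prostaglandin E2 receptors, Ptger1 and Ptger4 passed the filter, with Ptger4 at 0.21 to 1.41 CPM and log2 fold changes of -0.88 ± 0.65 and 1.04 ± 0.65. The prostacyclin receptor Ptgir was at 1.01 to 2.29 CPM and the PAF receptor Ptafr at 0.15 to 2.46 CPM, the highest value of the 15 receptors in the table. Tbxa2r, for thromboxane, was at 0.35 to 1.76 CPM. Ptgdr, a receptor for prostaglandin D2, was listed at 0 counts in all 12 tumors, as were Ltb4r2 and Oxgr1. Akr1b3, a widely expressed enzyme, was listed at 0 in all tumors too, so a 0 in this table sets no limit on expression. None of the 6 receptors that were tested (Cysltr1, Ptger1, Ptger4, Ptgir, Tbxa2r and Ptafr) passed the thresholds of the study between antibodies or between diets.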

How the data were processed

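RNA of 12 tumors was sequenced from stranded mRNA libraries. The authors checked reads with FastQC 0.11.5, aligned them to mm10 with STAR 2.7.0f and counted them per gene with HTSeq 0.9.1, per the submitters' processing notes, and deposited raw counts of 23420 genes, which are not normalized. Whether HTSeq used strand is not given in the sources used here. Alox5ap, Ltc4s, Ptgs1 and Pla2g7 share 148 to 319 exon bases in GENCODE M21 with a gene model on the opposite strand, so their counts are uncertain to that extent.

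Counts were analysed here with edgeR 4.0.16 in R 4.3.3. TMM scaling, the edgeR filter on low counts (13095 genes kept) and a quasi-likelihood fit of 4 group means over all 12 tumors gave log2 fold changes. Standard errors were taken as the size of the log2 fold change over the root of F, and 95% intervals used 8 residual degrees of freedom. A call followed the thresholds of the study (fold over 2, unadjusted P under 0.05), and FDR was adjusted over all genes tested. CPM used TMM-scaled library sizes. Total counts of 14022900 to 33871800 set the precision, and intervals on pooled counts cover counting error only. The labels name separate tumors as replicates. Pairs of tumors within a group differed by more than counting noise (chi-square per degree of freedom at least 9.67), so none was merged. With 3 tumors a group, an exact two-sided permutation test could not give less than 0.1 and was not used.

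The members and lists were chosen with earlier results of these data known, and the further pathway genes and markers follow textbook function. Text names all 10 members and, per comparison, every further pathway gene past the thresholds, or the 6 with the smallest P where more passed, with the receptors and the 5 genes most like Alox5, Pla2g7 and Ptges. Gene positions came from GENCODE M21 (GRCm38) and promoters from RefSeq. Marker lists of 13 cell types were fixed, and the summed levels of all are given. On simulated counts for the obese comparison (12977 genes), the edgeR fit recovered 49.5% of genes changed by fold 2 under the same thresholds. It recovered 98.0% of those changed by fold 4, with 96 unchanged genes called. A true fold of 2 lies on the fold threshold, so the first share was largely set in advance. The simulation held no spread particular to a gene and no shared tissue makeup. It recovered 72.7% and 90% at an FDR under 0.05, where the data gave no gene. These shares therefore do not measure power for the 10 genes.

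Same-numbered tumors were checked for pairing by the correlation of their deviations from group means. Every pair of the 2 anti–PD-1 groups exceeded 0.1 (0.111 to 0.443). In the other compared groups only 2 of 3 pairs (nonobese mice) or 1 of 3 pairs did. Pairs of tumors with different numbers reached 0.447, and the labels name no shared litter or batch. The numbers therefore do not establish pairing, and the replicate block is given only as an alternative fit. Alternatives were DESeq2 1.42.0, RLE scaling, the newer quasi-likelihood fit of edgeR, no filter beyond 1 count, at least 10 counts in every tumor, a fit of only the 6 tumors compared, the block, and leaving out each tumor.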

Additional observations from a re-analysis of the deposited data

Results flagged for a closer look

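The log2 fold change of Pla2g7 with anti–PD-1 had opposite signs under the 2 diets. In obese mice it was 0.98, just under fold 2, and did not pass the thresholds of the study. Every nonobese tumor given anti–PD-1 lay below every nonobese isotype control tumor, and every obese tumor given anti–PD-1 lay above every obese isotype control tumor. The obese minus the nonobese log2 fold change was 2.75. This difference contains the comparison that led to the choice of the gene and was not tested. Of all 13095 genes, 94 (0.718%) separated in these opposite directions.

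Pla2g2d separated in the same opposite directions on the CPM scale, with a difference of 4.85 in log2 fold change (edgeR, unadjusted P = 0.00189, FDR = 0.141). It had passed the filter on low counts only through tumors of the groups where it was high. Nothing is therefore read from that test. Its tumors held 0 to 27 counts each, and the nonobese anti–PD-1 tumors held 3, 0 and 1. The nearest nonobese tumors of the 2 groups held 3 counts each (0.170 and 0.152 CPM) and the nearest obese tumors 4 with isotype control and 3 with anti–PD-1 (0.168 and 0.212 CPM), so at counts this low the separation rests on the library sizes.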

How the results depend on the processing

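Low counts limit Alox5, Ltc4s, Ptges and Ptgs2, and 3 tumors a group limit every comparison. Counts of members lower in nonobese mice describe the comparison that chose the genes, so nothing is read from their stability. In obese mice 175 of 185 values over 19 alternatives kept their direction and side of the thresholds. With a floor of 10 counts per tumor, 6 members were tested, which lowered the count of members lower in nonobese mice from 5 to 2 and of other pathway genes lower there from 7 to 1. It took members lower in obese mice from 1 to 0, members higher from 0 to 1 (Pla2g7), other pathway genes higher in obese mice from 2 to 0, those lower in obese isotype control tumors from 1 to 0 and those higher in obese anti–PD-1 tumors from 7 to 1. The median of the members went from 0.94 to 0.25 between the anti–PD-1 groups and from 1.39 to 0.69 for the difference between responses. Other pathway genes higher in obese mice numbered 1 with DESeq2, with only the 6 tumors compared and with the replicate block. With every gene of at least 1 count, 2 were lower between the isotype control groups and 2 were lower between the anti–PD-1 groups, where DESeq2 gave 1 and the main count was 0.

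The replicate block left 5 members lower in nonobese mice and 1 lower in obese mice. Between the anti–PD-1 groups, 7 other pathway genes stayed past the thresholds by count, although the replicate numbers do not establish that these tumors were paired. Apart from the other pathway genes higher in obese mice (2 to 1, above), it changed no count by over 1.5 times.

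Leaving out 1 tumor at a time gave 4 to 6 members lower in nonobese mice, again only as a description. In obese mice it gave 0 to 1 lower (0 without obese isotype control replicate 1, where Ptgs2 was at -0.75, or without obese anti–PD-1 replicate 3) and 0 to 1 higher (Pla2g7). Other pathway genes lower in nonobese mice numbered 4 (without nonobese isotype control replicate 2) to 10, those higher in obese mice 0 to 8 (8 without obese anti–PD-1 replicate 1), those lower between the isotype control groups 0 to 7 (7 without nonobese isotype control replicate 1), and between the anti–PD-1 groups 5 to 12 were higher (12 without obese anti–PD-1 replicate 1) and 1 to 3 lower (3 without nonobese anti–PD-1 replicate 1), while more genes passed the filter on low counts whenever a tumor was left out. In obese mice the log2 fold change ran from -0.042 to 0.085 for Lta4h, -0.090 to 0.33 for Ptgs1 and -0.21 to 0.0057 for Ptgds. It also ran from 0.073 to 1.15 for Ltc4s, 0.28 to 1.24 for Alox5 and 0.11 to 0.60 for Ptges. The cause of these shifts was not tested.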

Other observations

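Ptges2 and Ptges3, also annotated as synthases of prostaglandin E2, were far more abundant than Ptges and differed little by antibody. Enzyme activity was not measured, so these RNA levels do not show how much prostaglandin E2 each gene makes. Per kilobase of exon, Ptges3 was at 35.9 and Ptges2 at 7.19 CPM per kb, against 0.285 CPM per kb for Ptges. With anti–PD-1 the log2 fold change of Ptges2 was 0.03 ± 0.14 in nonobese and -0.15 ± 0.14 in obese mice, and that of Ptges3 was 0.09 ± 0.19 and 0.12 ± 0.19. Neither gene passed the thresholds of the study in either diet (edgeR FDR from 0.855 to 0.984).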
